A study of Mus musculus with 273 samples.

Results

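Wild-type male C57BL/6J mice aged 26 weeks were sampled every 3 h over 36 h, so that ZT0, ZT3, ZT6, ZT9 and ZT12 were collected a first time at 0 to 12 h and a second time at 24 to 36 h. ZT is zeitgeber time, the hour of the light cycle. C57BL/6J is an inbred laboratory strain. The comparison described here is striatum of the second passage against striatum of the first passage at the same ZT. It asks whether striatal microRNAs of untreated animals differed when the same clock hours were sampled again on the next day. It took every striatum library at those 5 ZTs with a total of at least 500000 counts, 38 of the 46 striatum libraries and of the 273 libraries of the series. The second passage had 21 libraries, with 4, 3, 5, 5 and 4 at 24, 27, 30, 33 and 36 h. The first passage had 17 libraries, with 3, 3, 3, 3 and 5 at 0, 3, 6, 9 and 12 h. Each library came from the right striatum of 1 mouse, and no mouse was in both passages, so a difference between passages is a difference between animals. The mouse numbers in the labels were mostly lower in the first passage than in the second.

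The striatum is the input nucleus of the basal ganglia, made up mainly of GABAergic projection neurons, and its medial surface borders the lateral ventricle, where choroid plexus lies. A microRNA is cut from a hairpin precursor and guides repression of messenger RNAs that pair with its seed, bases 2 to 8 of the mature strand. The counts here are per hairpin and add both mature arms. The choroid plexus, the ciliated epithelium that secretes cerebrospinal fluid, is known for very high miR-204, which lies in an intron of Trpm3, and for the hairpins in introns of Htr2c, the serotonin 2C receptor gene, which that epithelium expresses strongly. The miR-34b, miR-34c and miR-449 hairpins are known from multiciliated cells.

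Mature sequences of hairpins described below, from RefSeq on GRCm38.p6, are given with the seed in capitals. RefSeq held an entry for 309 of the 364 hairpins tested. They are those of the choroid plexus, cilia and Htr2c hairpins with large passage ratios or a shared seed, followed by hairpins whose passage ratio differed from that in cortex or hypothalamus. The first pair, miR-204 and miR-211, shares 1 seed. The second pair, miR-34b and miR-449a, shares another.
miR-204-5p: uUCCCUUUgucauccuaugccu
miR-211-5p: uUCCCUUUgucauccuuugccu
miR-34b-5p: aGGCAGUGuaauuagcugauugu
miR-449a-5p: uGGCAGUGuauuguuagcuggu
miR-1298-5p: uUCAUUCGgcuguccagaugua
miR-448-3p: uUGCAUAUguaggaugucccau
miR-181d-5p: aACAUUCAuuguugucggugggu
miR-673-5p: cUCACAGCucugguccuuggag
miR-674-5p: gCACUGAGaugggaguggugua
miR-138-5p: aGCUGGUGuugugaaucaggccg
The miR-204 hairpin lies at chr19:22750605-22750672 on the plus strand, in an intron of Trpm3. The miR-1298 hairpin at chrX:147064905-147065002 and the miR-448 hairpin at chrX:147158210-147158321 both lie on the plus strand in introns of Htr2c. The miR-673 hairpin lies at chr12:109571990-109572080 on the plus strand and the miR-674 hairpin at chr2:117185127-117185226 on the plus strand, neither inside another annotated gene.

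Library totals ran from 743902 to 3716391 counts in the second passage and from 858587 to 3945446 in the first, with medians of 2100086 and 2095823. The mean log2 total differed by 0.03, less than the spread between libraries (permutation test within ZT, 100000 permutations, two-sided, p = 0.898). A count of 0 allowed at most 0.807 to 4.03 counts per 1000000 (CPM) in a second-passage library and 0.760 to 3.49 CPM in a first-passage library, taking 3 counts as the limit. The labels name no run. Libraries were grouped here into runs by their library numbers and L codes, and the labels do not say what the L code means. So defined, runs 1 to 3 had totals of 2434104 to 3945446 and runs 4 to 9 totals of 743902 to 2212919. The second passage had 9 libraries in runs 1 to 3 and 12 in runs 4 to 9, and the first passage had 6 and 11. Run 2 held the first passage alone and run 5 the second alone. Of the 38 libraries, 2 stood apart from the rest by more than 3 median absolute deviations of their median correlation with the others. Both were first-passage libraries of ZT3, 3 h replicates 3 and 4.

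No list held a microRNA that marks striatum alone, so the region was checked only by what else was present. The hairpins of a neuronal list, such as miR-128, miR-153 and miR-138, were summed. The sum was 10360 to 20518 CPM (median 13525) in the second passage and 11584 to 28445 CPM (median 16798) in the first. Its median was 26244 CPM in cortex and 9545 CPM in hypothalamus. The hairpins miR-124-1, miR-124-2 and miR-124-3 of that list added very little, with striatum means of 1.49, 7.19 and 0.337 CPM. The copies miR-9-1, miR-9-2 and miR-9-3 were low as well, at 6.20, 0.714 and 12.8 CPM. How reads matching several hairpin copies were counted is not given in the sources used here. Low counts of these copies therefore do not show that mature miR-124 or miR-9 was rare, and the sum may miss such reads. Hairpins known from muscle summed to at most 2.58 CPM in the second passage and 3.75 CPM in the first, and those of a mesenchymal list to at most 5.99 and 4.38 CPM, and none of either list was abundant enough to be tested.

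None of the 364 hairpins tested in striatum passed the threshold between passages. edgeR's quasi-likelihood test with ZT as a factor called 0 hairpins (0%) at a Benjamini-Hochberg adjusted p under 0.05, and the smallest adjusted p was 0.242. At an unadjusted p under 0.05 it gave 49 hairpins, 24 with higher and 25 with lower values in the second passage, where 18.2 are expected by chance if the hairpins did not differ. DESeq2 also called 0 hairpins, with 74 at an unadjusted p under 0.05, and limma voom with quality weights called 0, with 60. Over all alternatives and left-out libraries, the number at an unadjusted p under 0.05 ran from 16 to 84, so the excess was not seen in every setting. Of all 364 log2 ratios of second over first passage, 189 were above 0 and 175 below, with a median of 0.01. The 95% intervals put a limit on what could have been missed. They lay wholly within 1 log2 unit of no difference for 341 hairpins (93.7%) and within 0.5 log2 units for 213 (58.5%). The test of whether the passage difference depended on ZT likewise called 0 of 364 hairpins in edgeR, with 12 at an unadjusted p under 0.05, and 0 in DESeq2, with 19.

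**Figure D1:**
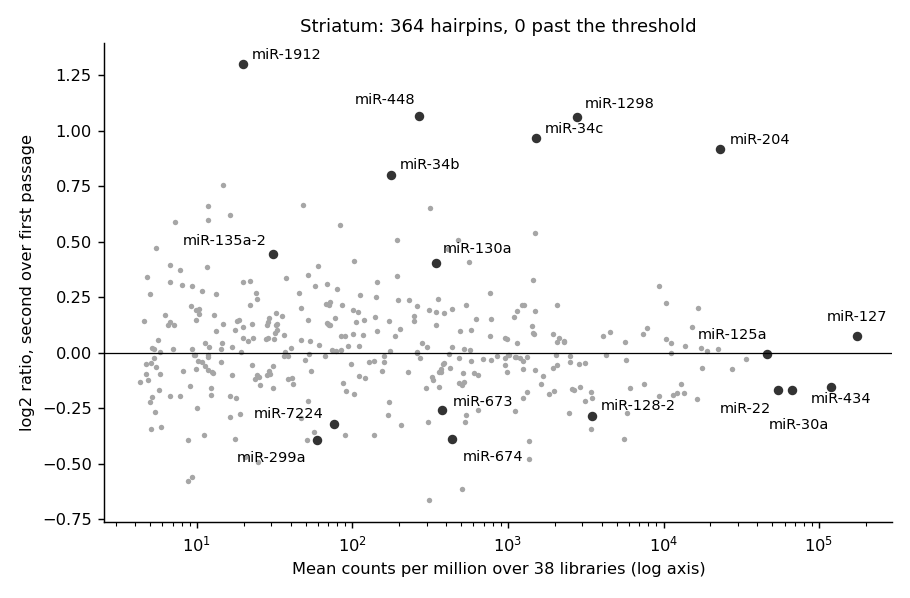
The log2 ratio of the second over the first passage (y axis) against the mean CPM over the 38 striatum libraries (x axis, log scale) for each of the 364 tested hairpins; dark points are named. The 6 named points at 0.80 or above are hairpins of the choroid plexus and cilia list or of the Htr2c introns, and the most abundant hairpins lie between -0.17 and 0.08.

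The 5 most abundant hairpins had log2 ratios within 0.17 of 0, and none passed the test. Of these, miR-127, from the imprinted Dlk1-Dio3 region, was the highest at 140554 to 218569 CPM (median 175746) in the second passage and 80225 to 227611 CPM (median 172825) in the first, a log2 ratio of 0.08 ± 0.09 (SE, n = 21 and 17). miR-434, from the same region, had medians of 100070 CPM in the second passage and 116926 CPM in the first, a log2 ratio of -0.15 ± 0.13. miR-30a had medians of 62320 and 72232 CPM in the second and first passage, a ratio of -0.17 ± 0.12. miR-22 had medians of 50213 and 50892 CPM in the second and first passage, a ratio of -0.17 ± 0.13. For miR-125a, a relative of Caenorhabditis elegans lin-4, the medians were 44691 CPM in the second passage and 48502 CPM in the first, a log2 ratio of -0.0048 ± 0.09. The libraries of both passages overlapped for all 5. The direction of the ratio turned under other settings for miR-127, miR-434 and miR-125a.

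The largest ratios were those of choroid plexus and Htr2c hairpins, none of which passed the test. miR-204 had 9426 to 110946 CPM (median 15116) in second-passage libraries and 9333 to 39397 CPM (median 12723) in first-passage libraries. The passages overlapped over most of their range, and 5 of 21 second-passage libraries lay above the highest first-passage one. The log2 ratio was 0.92 ± 0.33 (SE; 95% interval 0.25 to 1.58; edgeR adjusted p = 0.242). By ZT, only the plain difference of mean log2 CPM was taken, which is not the fitted ratio and does not average to it. That difference was 1.34 at ZT3, 0.16 at ZT6, 0.50 at ZT9 and 1.15 at ZT12. At ZT0 it was -0.26, where 2 of the 3 first-passage libraries had 29809.7 and 39397 CPM.

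The 2 most abundant Htr2c hairpins had their highest values in the same libraries. miR-1298 had 993 to 13029 CPM (median 1456) in the second passage and 849 to 5882 CPM (median 1412) in the first, a log2 ratio of 1.06 ± 0.37 (adjusted p = 0.242 in edgeR). miR-448 had 114 to 1191 CPM (median 150.0) in the second passage and 82.6 to 537 CPM (median 140) in the first, a log2 ratio of 1.06 ± 0.36 (adjusted p = 0.242). For both, the medians of the passages nearly coincided, and 5 second-passage libraries exceeded every first-passage one. The rarer members had log2 ratios of 1.30 ± 0.48 for miR-1912, 0.31 ± 0.15 for miR-1264 and 0.29 ± 0.17 for miR-764. miR-1912 was low, with 2.33 to 101 CPM (median 10.7) in the second passage and 3.78 to 57.5 CPM (median 6.82) in the first. Its lowest values were close to what a count of 0 allows in the shallowest libraries. All 5 tested hairpins of the Htr2c introns thus had ratios above 0 with a median of 1.06, beside a median of 0.01 over all 364, and 0 of 5 passed. They come from introns of 1 gene and are not independent of each other.

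Of the 7 hairpins on the choroid plexus and cilia list, 5 were abundant enough to be tested, 0 passed, and their median log2 ratio was 0.80. miR-34c had 350 to 7527 CPM (median 1209) in the second passage and 248 to 3282 CPM (median 851) in the first, a log2 ratio of 0.97 ± 0.35. miR-34b had 50.6 to 660 CPM (median 129) in the second passage and 30.0 to 423 CPM (median 128) in the first, a ratio of 0.80 ± 0.35. miR-211, with the seed of miR-204, had a ratio of 0.60 ± 0.31. It was low, with 1.94 to 48.8 CPM (median 11.9) in the second passage and 1.27 to 16.5 CPM (median 10.2) in the first. miR-449a, with the seed of miR-34b, went the other way, with 2.26 to 64.3 CPM (median 12.2) in the second passage, 7.84 to 43.0 CPM (median 23.4) in the first and a ratio of -0.47 ± 0.30. miR-449b and miR-449c were too low to be tested in striatum. The list summed to 9879 to 115915 CPM (median 16456) in the second passage and 9965 to 43115 CPM (median 13805) in the first, nearly all of it miR-204. The Htr2c list summed to 1275 to 14570 CPM (median 1772) in the second passage and 1013 to 6658 CPM (median 1695) in the first. More cells of a type and more RNA per cell cannot be told apart in tissue libraries, and the part of choroid plexus tissue in these ratios was not tested.

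**Figure D2:**
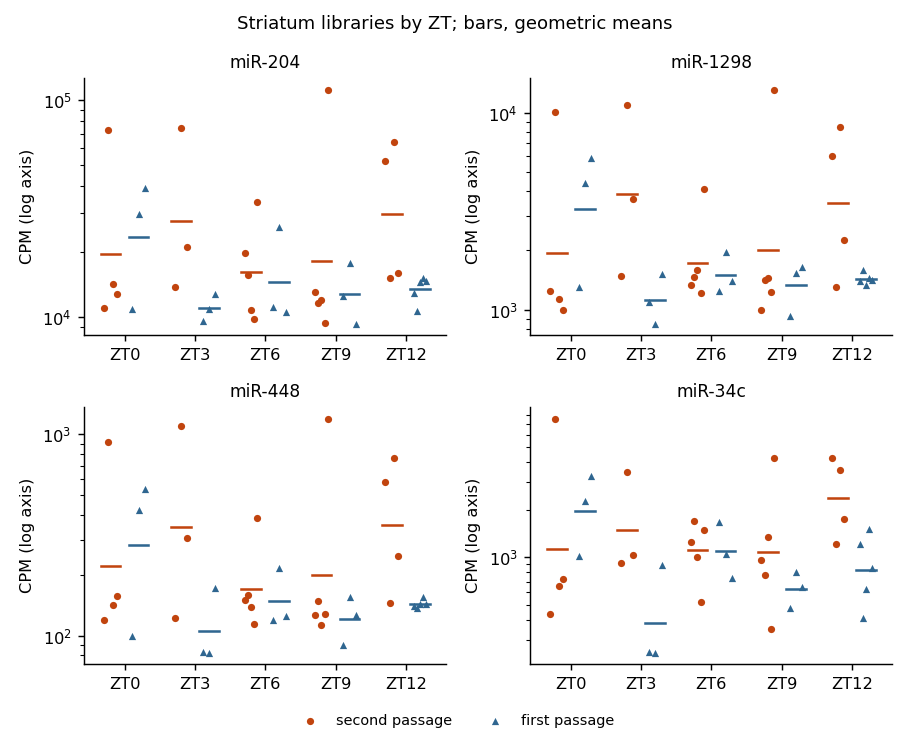
CPM of miR-204, miR-1298, miR-448 and miR-34c (y axes, log scale) in each of the 38 striatum libraries by ZT (x axes), with second-passage libraries as circles on the left of each ZT, first-passage libraries as triangles on the right, and bars for geometric means. At most ZTs 1 or 2 second-passage libraries stand far above the rest, and at ZT0 2 first-passage libraries are high as well.

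The 5 second-passage libraries whose choroid plexus sum exceeded every first-passage library were 24 h replicate 4 at 80620 CPM, 27 h replicate 5 at 78406 CPM, 33 h replicate 9 at 115915 CPM, and 36 h replicates 1 and 5 at 56999 and 68151 CPM. They came from 4 time points and 5 different runs. Leaving out 33 h replicate 9 alone brought the log2 ratio of miR-204 to 0.64, that of miR-1298 to 0.77 and that of miR-448 to 0.79. In runs 1 to 3 alone the ratios were 0.40, 0.41 and 0.48 for these hairpins in the same order, and in runs 4 to 9 alone they were 0.87, 1.06 and 1.04. The second passage did not reach such miR-204 values in cortex or hypothalamus, for which the same mice and others were used. miR-204 had 3896 to 8514 CPM in second-passage cortex and 3469 to 39785 CPM in first-passage cortex, and 14334 to 22024 CPM in second-passage hypothalamus and 13997 to 20903 CPM in first-passage hypothalamus.

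Across the 38 striatum libraries, the relation of miR-204 with the other tested hairpins of both lists ranged from close to weak (log2 CPM with 0.5 added; 9 relations computed, each with 100000 permutations, adjusted over the 9). With miR-448, Pearson's r was 0.96 (permutation p = 1e-05, the smallest possible; adjusted p = 1.29e-05) and Spearman's rho 0.87 (permutation p = 1e-05, adjusted 2.25e-05), and r was 0.95 without the 2 libraries farthest from the median of miR-204. Within the second passage r was 0.98 and within the first 0.91, and it was 0.97 in runs 1 to 3 and 0.97 in runs 4 to 9. With miR-1298, r was 0.94 and rho 0.68 (permutation p = 1e-05 for both, adjusted 1.29e-05 and 2.25e-05), r was 0.92 without those 2 libraries, 0.96 within the second passage and 0.84 within the first, and 0.95 and 0.94 in the run sets. With miR-34b, miR-34c, miR-1912 and miR-1264, r was 0.87, 0.84, 0.88 and 0.81 and rho 0.74, 0.80, 0.65 and 0.44 (adjusted permutation p of r 1.29e-05 for each), and 0.83, 0.82, 0.84 and 0.69 without the 2 libraries. The relation with miR-211 was weaker and uneven, with r of 0.56 and rho of 0.52 (adjusted permutation p = 0.00036 and 0.00125), r of 0.42 without the 2 libraries, 0.71 within the second passage and 0.11 within the first, and 0.88 and 0.64 in the run sets. The weakest was with miR-764, with r and rho of 0.33 (adjusted permutation p = 0.0465 and 0.0426), r of 0.36 without the 2 libraries, 0.27 within the second passage and 0.35 within the first, and 0.40 and 0.47 in the run sets. miR-449a was the exception in sign among the 9, with r of -0.69 and rho of -0.62 (permutation p = 1e-05 and 5e-05, adjusted 1.29e-05 and 7.5e-05), r of -0.64 without the 2 libraries, -0.66 within the second passage and -0.62 within the first, and -0.75 and -0.70 in the run sets. The libraries high in miR-204 were high in miR-448 and miR-1298 and low in miR-449a in either passage. All CPM values of a library share 1 total.

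**Figure D3:**
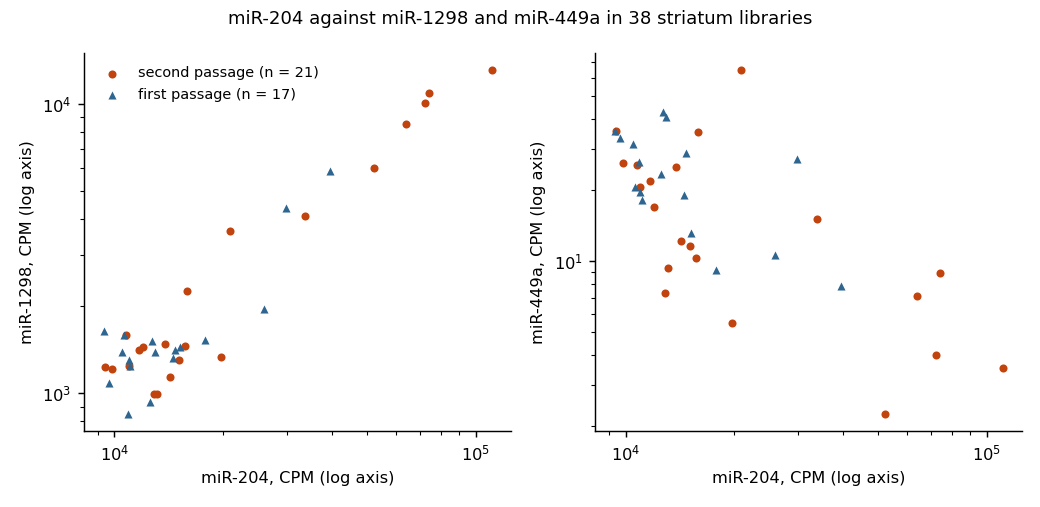
CPM of miR-1298 (left) and miR-449a (right) against miR-204 in the 38 striatum libraries, all axes log scale, second-passage libraries as circles and first-passage libraries as triangles. miR-1298 climbs with miR-204 (r 0.94) while miR-449a declines (r -0.69), and the 5 libraries highest in miR-204 are of the second passage.

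The other hairpins with the smallest p and higher values in the second passage had smaller ratios. miR-135a-2, in an intron of the long noncoding RNA gene Rmst at chr10:92072086-92072185 on the minus strand, had 18.0 to 56.0 CPM (median 39.6) in the second passage and 15.1 to 55.0 CPM (median 23.4) in the first, a log2 ratio of 0.45 ± 0.16 (adjusted p = 0.242). The difference of mean log2 CPM was above 0 at 5 of 5 ZTs, which the choice of the hairpin by its small p favours. The passages overlapped at nearly their whole range. miR-135a-2 shares a mature strand with miR-135a-1, and reads of that strand could be split between them. miR-130a, known from blood-forming and endothelial cells, had 191 to 741 CPM (median 339) in the second passage and 174 to 511 CPM (median 276) in the first, a log2 ratio of 0.40 ± 0.14 (adjusted p = 0.242).

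Among hairpins with lower values in the second passage, miR-673 had the smallest p. It lies in the Dlk1-Dio3 region and had 243 to 452 CPM (median 336) in the second passage and 270 to 529 CPM (median 402) in the first, a log2 ratio of -0.26 ± 0.08 (adjusted p = 0.242). Of the 17 first-passage libraries, 7 lay above every second-passage library. miR-674 had 264 to 597 CPM (median 355) in the second passage and 264 to 1182 CPM (median 434) in the first, a log2 ratio of -0.39 ± 0.13. Its highest values, 1182 and 1031 CPM, were in the pair of ZT3 libraries that stood apart, and without them the ratio was -0.28. miR-299a, also of the Dlk1-Dio3 region, had medians of 50.5 CPM in the second passage and 68.4 CPM in the first, a ratio of -0.39 ± 0.14. miR-7224, in an intron of B3galt1, had medians of 64.1 and 83.6 CPM in the second and first passage, a ratio of -0.32 ± 0.12. miR-128-2, a neuronal hairpin in an intron of Arpp21, had medians of 3022 and 3741 CPM in the second and first passage, a ratio of -0.28 ± 0.10. All 5 had an adjusted p of 0.242 in edgeR and differences of mean log2 CPM below 0 at 5 of 5 ZTs. They were picked from the same libraries for a small p in that direction, so this agreement follows in part from the choice.

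**Figure D4:**
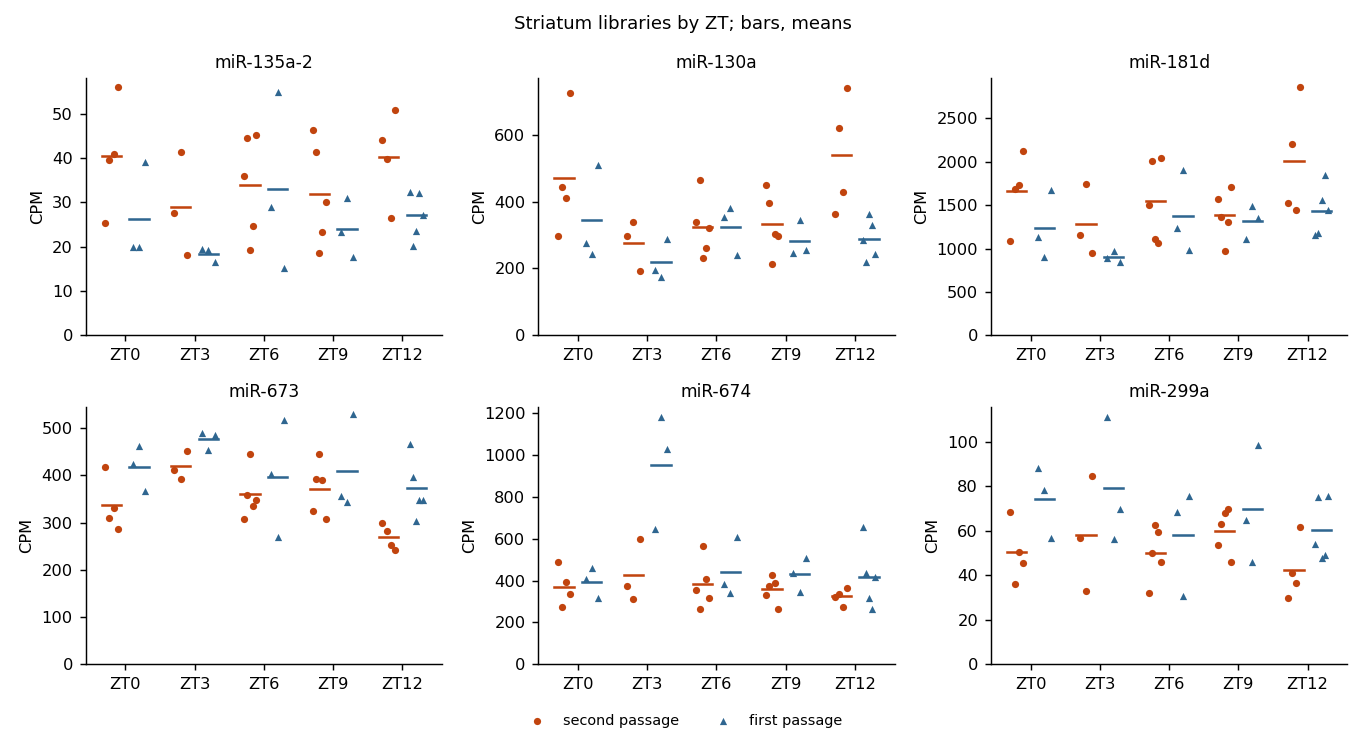
CPM (y axes, from 0) of 6 further hairpins in each striatum library by ZT (x axes), second-passage libraries as circles on the left, first-passage libraries as triangles on the right, bars for means. The passages overlap at most ZTs; miR-674 is highest in first-passage libraries of ZT3, at up to 1182 CPM.

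The other lists gave no hairpin past the threshold. The medians farthest from 0.01, that of all hairpins, were 0.36 for the 4 tested hairpins of the neuroendocrine list (3 above 0), 0.30 for the 2 of the hindbrain and spinal Hox list (2 above 0) and 0.29 for the 4 of the miR-200 family (3 above 0). Of these, miR-375, a hairpin of endocrine cells, had 0.65 ± 0.34 (adjusted p = 0.370), miR-10b 0.51 ± 0.48 (adjusted p = 0.688) and miR-200b 0.66 ± 0.32 (adjusted p = 0.353). The 3 hairpins of the endothelial and mural list all had ratios above 0, with a median of 0.18. Of the 15 neuronal hairpins tested, 8 had ratios above 0 and 7 below, with a median of 0.01. The 4 miR-29 hairpins, abundant in glia and the mature brain, all had ratios below 0 with a median of -0.19, of which miR-29a had -0.21 ± 0.09. The activity-regulated list, with miR-132 and miR-212, had 1 ratio above 0 and 4 below (median -0.14). The oligodendrocyte list, with miR-219a and miR-338, had 2 above and 1 below (median 0.11). Of the Dlk1-Dio3 hairpins, 49 were tested, 15 above 0 and 34 below, with a median of -0.05. The 25 tested hairpins of a clock-linked list split into 14 above and 11 below (median 0.04), those of the let-7 family into 4 and 8 (median -0.06) and those of the miR-30 family into 2 and 4 (median -0.12).

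Libraries spread more around the fit of ZT and passage in striatum than in the other brain regions. That fit had no term for a passage difference that varies with ZT, so any such variation is part of the residual. The residual SD of log2 CPM had a median of 0.44 in striatum, 0.27 in cortex and 0.30 in hypothalamus over 348 hairpins, and it was higher in striatum for 320 of them against cortex and for 306 against hypothalamus. miR-10b, a hairpin of the Hoxd cluster, had the largest residual SD at 1.28 of the 190 hairpins with at least 100 CPM. Next came miR-6240 at 1.22, with 1.29 in cortex and 1.18 in hypothalamus, then miR-1249 at 1.12 and miR-375 at 1.11. The values were 1.11 for miR-34c, 1.09 for miR-1298, 1.03 for miR-448 and 0.96 for miR-204. In cortex these 4 had 0.58, 0.87, 0.84 and 0.50 in the same order, and in hypothalamus 0.42, 0.16, 0.16 and 0.15. The median standard error of the passage ratio was 0.15 in striatum, 0.07 in cortex and 0.08 in hypothalamus.

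Cortex and hypothalamus libraries of the same time points were used to ask whether the passage ratios differed between brain regions. Cortex had 30 libraries in each passage and hypothalamus 30 in the second and 27 in the first, and all 38 mice of the striatum libraries were among them, if the mouse of 33 h replicate 9, whose code lacks a letter in the striatum label, is taken as the mouse of that time point with the full code. The comparisons restricted to the same mice and those with the animal as a block rest on that reading. In cortex alone 124 of 377 hairpins (32.9%) passed between passages, 70 higher and 54 lower in the second. Median totals in cortex were 3469490 counts in the second passage and 2708880 in the first. Some runs held cortex libraries of only the second or only the first passage. Whether depth or library run had a part in these cortex calls was not tested. In hypothalamus alone 0 of 361 (0%) passed, with 4 at an unadjusted p under 0.05. When the cortex comparison was restricted to the mice of the striatum libraries, 2 hairpins passed. Over the 356 hairpins tested in both, Pearson's r of the striatum and cortex ratios was 0.0011 across hairpins, which are not independent replicates, and 59 of the 120 called in cortex had the same sign in striatum.

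The passage ratio differed between striatum and cortex for 44 of 397 hairpins (11.1%), with 18 higher and 26 lower in striatum (edgeR, tissue by passage interaction). Of these, 41 were tested in each tissue separately, and in all 41 the ratios had opposite signs, 25 lower in striatum and higher in cortex and 16 the reverse. They were picked for a large difference between the tissues, so opposite signs follow in part from that choice. Over all 356 hairpins tested in both tissues, 173 had the same sign. Of the 41, 34 had also passed in cortex by itself, while none passed in striatum by itself. The smallest p was that of miR-673, with a ratio of -0.26 in striatum and 0.16 in cortex, a difference of -0.42 ± 0.08 (adjusted p = 0.000592). miR-378a, from the gene of the metabolic coactivator Ppargc1b, had -0.27 in striatum and 0.21 in cortex, a difference of -0.48 ± 0.10 (adjusted p = 0.00289). miR-383 had -0.31 and 0.33, a difference of -0.65 ± 0.15, and miR-138-1, a brain hairpin known to limit dendritic spine growth, had -0.66 and 0.31, a difference of -0.997 ± 0.24. miR-181d, of the miR-181 family, had 0.33 in striatum and -0.16 in cortex, a difference of 0.48 ± 0.12. The adjusted p was 0.00609 for each of these 3.

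Of the choroid plexus and cilia list, miR-204 (1.26 ± 0.33, adjusted p = 0.00787), miR-34b (0.98 ± 0.32, adjusted p = 0.033), miR-449a (-1.26 ± 0.36, adjusted p = 0.0147) and miR-449c (-1.72 ± 0.44, adjusted p = 0.00787) differed in ratio between striatum and cortex. The miR-449 hairpins thus differed in the direction opposite to miR-204 and miR-34b, and miR-449c was tested only in the fit over both tissues. Of the same list, miR-34c (0.82, adjusted p = 0.107) and miR-211 (0.44, adjusted p = 0.410) did not pass. No Htr2c hairpin passed either. Their differences were 1.32 for miR-1912 (adjusted p = 0.141), 0.96 for miR-448 (0.143) and 0.77 for miR-1298 (0.282). The other Htr2c hairpins went the other way, with -0.55 for miR-764 (0.162) and -0.24 for miR-1264 (0.698). In first-passage cortex, 2 of 30 libraries had more miR-204 than any second-passage library, at up to 39785 CPM against a median of 4897 CPM. miR-299a also differed (-0.43 ± 0.12, adjusted p = 0.0159). The count of 44 was far lower in a smaller set of cortex libraries. Restricted to cortex libraries of the mice that also gave striatum libraries, which leaves fewer cortex libraries, 1 hairpin remained, miR-673 (-0.37, adjusted p = 0.0425). Among those that no longer passed, the difference there was -0.41 for miR-378a, -0.58 for miR-383, -1.04 for miR-138-1 and 0.50 for miR-181d. Each had an adjusted p of 0.0614 in edgeR. The others that no longer passed are not described, and why the count fell was not tested. Without the 2 striatum libraries that stood apart the count was 40, of which 38 were among the 44.

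Against hypothalamus, 1 of 383 hairpins (0.261%) differed in passage ratio, miR-674, with -0.39 in striatum and 0.05 in hypothalamus, a difference of -0.48 ± 0.12 (adjusted p = 0.0448). Without the 2 ZT3 libraries that stood apart the difference was -0.32 (adjusted p = 0.175), and it kept its side of the threshold when 1 library was left out for 14 of the 38 libraries. The difference for miR-204 was 0.87 ± 0.27 (adjusted p = 0.123) and for miR-448 1.03 ± 0.29 (adjusted p = 0.123), so neither was shown to differ from hypothalamus.

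**Figure D5:**
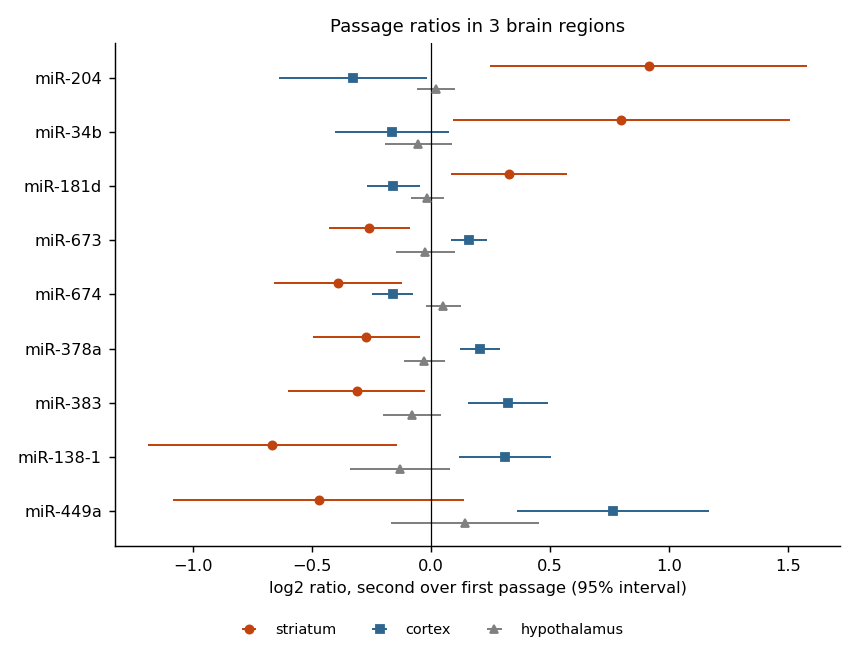
Log2 ratio of the second over the first passage (x axis, points, with 95% intervals as bars) for 9 hairpins (rows) in striatum, cortex and hypothalamus. The striatum and cortex points lie on opposite sides of 0 for 8 of the 9 hairpins, miR-674 being the exception, and the striatum intervals are the widest. Those 8 are among the hairpins called as different between striatum and cortex, so the opposite sides follow in part from that choice.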

How the data were processed

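The authors deposited whole-number counts per miRNA hairpin and library, not normalized. Per the submitters' processing notes, STAR 2.7.3a and HTSeq 0.10.0 were used with GRCm38 (mm10). Trimming and the handling of reads matching several places are not given in the sources used here. Groups came from the labels' tissue, ZT and time point. CPM are counts over TMM-scaled totals. Passages were compared with edgeR 4.0.16 (R 4.3.3; TMM, filterByExpr by passage, quasi-likelihood F test, Benjamini-Hochberg over all tested hairpins, threshold 0.05), with ZT as a factor. Tissue differences were tissue by passage contrasts over cells of tissue and ZT. Ratios are unshrunk coefficients, with standard errors from the F statistic. Alternatives used DESeq2 1.42.0, limma 3.58.1, other scalings, filters, covariates and left-out libraries. The fits were tested on simulated data. The striatum library of ZT9 replicate 6 (26341 counts) was left out for its total. No 2 libraries of a group agreed within sampling noise. Counting limits cover counting error only. The members and the lists were chosen with earlier results of these data known. Hairpins were named by a rule: the 5 smallest p in each direction and the 5 most abundant, with mean CPM of at least 10, up to 5 by p in each tissue test, and the leading members of each list; miR-34b, miR-449a, miR-211, miR-1912, miR-1264, miR-764, miR-449c, miR-375, miR-200b and miR-10b were added after their values were seen.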

Additional observations from a re-analysis of the deposited data

Results flagged for a closer look

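Among 105 sets of libraries of 1 time point examined for the named hairpins and the summed choroid plexus and Htr2c lists, 13 held 1 library far above the others. The limit used gives about 1 in 20 by chance for independent sets. The flagged sets were of miR-204, miR-1298, miR-448 and the 2 list sums that contain them. These rise together, so the 13 flags cannot be set against that rate. The flags fell on 3 libraries in all. Of the 5 time points examined, 12 h was the only one of the first passage, since 0, 3, 6 and 9 h had 3 libraries each and were not examined, so that the 3 libraries are of the second passage says little about the passages. Striatum 24 h replicate 4 had 72428 CPM of miR-204, against 10977 to 14214 CPM in the other libraries of that time point. It had 10064 CPM of miR-1298 and 916 CPM of miR-448, and its summed choroid plexus and Htr2c lists were 80620 and 11293 CPM. Striatum 33 h replicate 9 had 110946 CPM of miR-204, against 9426 to 13100 CPM in the others, with 13029 CPM of miR-1298, 1191 CPM of miR-448 and summed lists of 115915 and 14570 CPM. Striatum 30 h replicate 8 had 4108 CPM of miR-1298, 384 CPM of miR-448 and a summed Htr2c list of 4685 CPM.

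The passage ratio differed between striatum and cortex by -0.42 log2 units for miR-673, -0.48 for miR-378a, -0.65 for miR-383, 0.48 for miR-181d, -0.997 for miR-138-1, 1.26 for miR-204, 0.98 for miR-34b, -0.43 for miR-299a, -1.26 for miR-449a and -1.72 for miR-449c, and between striatum and hypothalamus by -0.48 for miR-674, by the interaction tests above.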

How the results depend on the processing

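The count of 0 hairpins between striatum passages held in all 22 alternatives and all 38 left-out libraries, with a smallest adjusted p of 0.0901 (leaving out ZT0). No paired analysis was possible because the replicate numbers of the passages at 1 ZT do not overlap and the passages hold different mice. The number that differed from cortex was 26 with no filter on low counts and 1 with cortex libraries of the striatum mice alone. With 1 library left out it ran between 34 (without 27 h replicate 5) and 75 (without 6 h replicate 5). With run as a term it was 33, of which 26 were among the 44, and with the animal as a random block in limma 41, of which 35 were. The 1 hairpin that differed from hypothalamus became 0 under all 6 alternatives (DESeq2 size factors, no filter, run as a term, animal block, libraries that stand apart left out, hypothalamus libraries of the striatum mice alone), at adjusted p of 0.0616 to 0.322 for miR-674, and 0 to 12 with 1 library left out, 12 without 6 h replicate 5. The cause was not tested. Ratios near 0 changed sign for miR-125a, which was 0.0076 with DESeq2 size factors, 0.018 with library totals, 0.017 at a mean CPM of at least 10, 0.0071 in DESeq2, 0.032 with ZT9 replicate 6, 0.039 without ZT9, 0.048 without ZT12, 0.020 in runs 4 to 9 alone, 0.0035 with run set as a term and -0.056 to 0.028 with 1 library left out. For miR-127 it was -0.027 with run as a term, -0.024 in runs with both passages, -0.034 without ZT3 and -0.015 without the libraries that stand apart, and for miR-434 0.0072 without ZT3.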
